A study of Homo sapiens with 8 samples.

Results

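The respiratory chain genes described here were the 73 of 59641 genes in the table whose symbols name a subunit of complexes I to IV of the mitochondrial respiratory chain, or one of the 13 proteins encoded by mitochondrial DNA. The rule that chose them used symbols and no measured value, but it was set with earlier results of these data known. The nuclear genome encodes 60 of them: 38 symbols of the NDUF series (complex I), the 4 SDH genes (complex II), 8 UQCR genes (complex III) and 10 COX genes (complex IV). A mean of at least 1 FPKM over the 8 libraries was needed for a test, and 72 of the 73 reached it, as did 14100 genes in all. FPKM scales the reads of a gene by a gene length and by the reads of its library. For all 72 members tested that length matched the mean length of all annotated transcripts of the gene. Comparisons of level between genes therefore depend partly on the annotation.

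The cells were HCT116, an established human colorectal cancer line. The 4 hFGF19 samples had received 100 ng/ml of the human growth factor FGF19 over 72 hours, and the 4 control samples had no such stimulation. FGF19 is a gut hormone of the FGF family whose main receptor is FGFR4. The design asks which transcripts differ after this exposure, and neither the title nor the design text of the study names the respiratory chain. Nothing in the labels says whether samples of a group were separate cultures, and the spread that the p-values rest on may therefore be technical.

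The libraries held 17121190 (hFGF19 2) to 20752753 (hFGF19 1) reads. One step of the RNA protocol in the labels speaks of an adipose type. The summed level of 10 adipocyte markers was 3.002 to 3.93 FPKM in hFGF19 libraries and 3.38 to 3.87 FPKM in control libraries, with FABP4 at 0 in every library, and 1 of the 10 reached 1 FPKM. The 12 epithelial markers summed to 2742 to 2931 FPKM in hFGF19 libraries and 2800 to 3005 FPKM in control libraries, and 8 of them reached 1 FPKM. Most of the sum came from KRT8 (a mean of 1413 FPKM in hFGF19 and 1488 in control libraries), KRT18 (593 and 580) and KRT19 (705 and 692). The colon transcription factor gene CDX1 was at 0 in every library. The others under 1 FPKM were CDX2 (means of 0 and 0.012 FPKM in hFGF19 and control libraries), VIL1 (0.10 and 0.18) and LGALS4 (0.19 and 0.31). Muscle, fibroblast and immune markers summed to at most 9.11, 26.8 and 2.82 FPKM in any library. No gene of these 5 marker lists reached an adjusted p under 0.05 in the comparison given further on.

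The respiratory chain passes electrons from NADH (through complex I) and from succinate (through complex II) to ubiquinone, then through complex III and cytochrome c to complex IV, which reduces oxygen to water. Complexes I, III and IV pump protons across the inner mitochondrial membrane, and ATP synthase uses the gradient to make ATP. Complexes I, III and IV are built from subunits of both genomes, while all subunits of complex II are nuclear. The mitochondrial genes are transcribed as long precursors from both strands, which are cut into separate mRNAs. Several nuclear subunit genes are known targets of the transcription factors NRF1, GABP (an ETS family factor, made of GABPA and GABPB1) and YY1.

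Promoter sequences are shown for the nuclear subunit genes of complexes IV, III and II with the highest level of their complex. For complex I the gene with the smallest p-value, NDUFA7, is shown in place of the highest. The windows show which of the named motifs they hold, and any part of the motifs in differences between libraries was not tested. Each runs from 250 bases before to 50 bases after a transcription start and comes from RefSeq (GRCh38.p14), chr16:85799445-85799744 (plus strand) for COX4I1, chr3:48609597-48609896 (minus strand) for UQCRC1, chr1:17053983-17054282 (minus strand) for SDHB and chr19:8321326-8321625 (minus strand) for NDUFA7. Capitals mark matches, on either strand, to GCGCANGCG (the NRF1 motif), CCGGAAG (ETS) or AAGATGGC (YY1).
COX4I1: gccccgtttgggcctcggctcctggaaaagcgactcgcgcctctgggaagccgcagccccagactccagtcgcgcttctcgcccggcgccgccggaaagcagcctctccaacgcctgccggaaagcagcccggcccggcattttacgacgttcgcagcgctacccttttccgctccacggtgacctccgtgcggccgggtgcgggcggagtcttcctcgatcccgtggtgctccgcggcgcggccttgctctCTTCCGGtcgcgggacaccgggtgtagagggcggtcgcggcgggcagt
UQCRC1: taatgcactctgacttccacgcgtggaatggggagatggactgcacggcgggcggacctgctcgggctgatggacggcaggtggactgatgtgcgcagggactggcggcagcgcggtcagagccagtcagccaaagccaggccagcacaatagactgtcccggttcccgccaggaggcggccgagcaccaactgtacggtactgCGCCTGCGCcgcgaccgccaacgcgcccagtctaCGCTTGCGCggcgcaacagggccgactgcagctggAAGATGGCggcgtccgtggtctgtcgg
SDHB: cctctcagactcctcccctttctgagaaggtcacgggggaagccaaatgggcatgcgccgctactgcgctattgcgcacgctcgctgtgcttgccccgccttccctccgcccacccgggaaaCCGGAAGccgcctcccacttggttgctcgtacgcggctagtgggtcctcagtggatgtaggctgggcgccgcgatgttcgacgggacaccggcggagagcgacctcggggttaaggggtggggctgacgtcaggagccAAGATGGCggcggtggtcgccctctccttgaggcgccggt
NDUFA7: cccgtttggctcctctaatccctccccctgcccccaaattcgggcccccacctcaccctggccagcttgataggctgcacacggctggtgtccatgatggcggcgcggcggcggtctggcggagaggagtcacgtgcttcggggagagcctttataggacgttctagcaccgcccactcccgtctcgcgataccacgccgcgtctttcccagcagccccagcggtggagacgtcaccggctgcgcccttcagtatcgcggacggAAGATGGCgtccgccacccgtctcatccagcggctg

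The COX4I1 window held 1 ETS match. The UQCRC1 window held 2 NRF1 matches and 1 YY1 match. The SDHB window held 1 ETS and 1 YY1 match, and the NDUFA7 window 1 YY1 match. The window of NDUFB10, the nuclear complex I gene of highest level, held no match to these motifs and is not shown. Of the 60 nuclear members, 51 matched an entry of the promoter table by gene identifier or symbol, and the first start listed was used for each gene. The NRF1 motif was found in 16 of the 51 windows (31.4%), against 8.05% of 27305 promoters in the table and 15.2% of the 9657 that belong to genes tested here. The ETS motif was found in 15 (29.4%), against 10.7% of all promoters and 19.8% of those of genes tested. The YY1 motif was found in 8 (15.7%), against 3.03% and 5.65%. At least 1 of these motifs stood in 31 of the 51 windows, against 35% for genes tested. TATAAA stood in 5 windows (9.8%), against 12% of all promoters and 5.49% for genes tested. CCAAT stood in 15 (29.4%), against 35.7% and 36.8%. A match describes letters in a window and does not show binding.

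The mitochondrially encoded genes had the highest levels. MT-CO1, the catalytic core subunit of complex IV, led with 18331, 16855, 16842 and 16995 FPKM in hFGF19 1 to 4, against 18291, 15230, 16094 and 18333 FPKM in control 1 to 4. Next came MT-ND1 (a mean of 4494 FPKM over the 8 libraries), MT-CO3 (3682), MT-ND2 (3532), MT-ND4 (3412), MT-CO2 (3302), MT-ND5 (3248), MT-ND6 (2978), MT-CYB (2420), MT-ATP6 (2331) and MT-ND4L (1508). MT-ND3 averaged 837 FPKM, and MT-ATP8 only 47.1 FPKM. MT-ATP8 and MT-ATP6, both subunits of ATP synthase, come from a shared mRNA in which the reading frames overlap. MT-ATP8 had 43.3, 44.0, 59.4 and 48.0 FPKM in hFGF19 1 to 4, against 45.4, 36.2, 48.3 and 52.3 FPKM in control 1 to 4. The level of MT-ATP6 was 39.2 to 59.4 times that of MT-ATP8 across the 8 libraries.

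The MT-ATP8 frame (chrM:8366-8572, plus strand, GRCh38, from the GENCODE 29 transcripts) is shown because 46 of its 207 bases, in capitals, also belong to MT-ATP6.
MT-ATP8: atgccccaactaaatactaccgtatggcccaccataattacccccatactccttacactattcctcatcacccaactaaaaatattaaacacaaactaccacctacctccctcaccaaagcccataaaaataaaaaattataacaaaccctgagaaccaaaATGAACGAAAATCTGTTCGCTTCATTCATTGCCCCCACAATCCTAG
MT-ND4L shares 7 of its 297 bases with MT-ND4 in the same way, at a level much closer to its partner's. How reads over shared bases were assigned is not given in the sources used here, and its part in the low MT-ATP8 level was not tested. The same holds for the part played by the short length of the gene.

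The nuclear members spanned 0.671 to 264 FPKM in mean level, with a median of 41.6 FPKM. COX4I1, the largest nuclear subunit of complex IV, was the highest, with 230, 288, 305 and 274 FPKM in hFGF19 1 to 4, against 241, 282, 257 and 238 FPKM in control 1 to 4. UQCRC1, a core protein of complex III, followed with 241, 274, 283 and 269 FPKM in hFGF19 1 to 4, against 236, 263, 259 and 244 FPKM in control 1 to 4. The groups overlapped for both genes, and hFGF19 3 was the highest library for both. The median member level was 30.5 FPKM in complex I, 49.5 in complex II, 52.8 in complex III and 67.1 in complex IV. Within complex II the order in FPKM was SDHB (the iron-sulfur subunit, 70.0 FPKM), SDHA (the flavoprotein, 57.7), SDHC (41.3) and SDHD (23.6). SDHC and SDHD anchor the complex in the membrane. This order depends on the lengths used. SDHC was scaled by 2195 bases, with a median annotated transcript of 651, and SDHB by 702, with a median of 674. Within complex I the accessory subunit genes NDUFB10 (131 FPKM) and NDUFA1 (127) were the highest. The core subunit genes ran over a wide range, with NDUFV1 at 116 FPKM, NDUFS8 at 113, NDUFS1 at 43.3, NDUFV2 at 8.39 and NDUFS7 at 1.37.

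**Figure D1:**
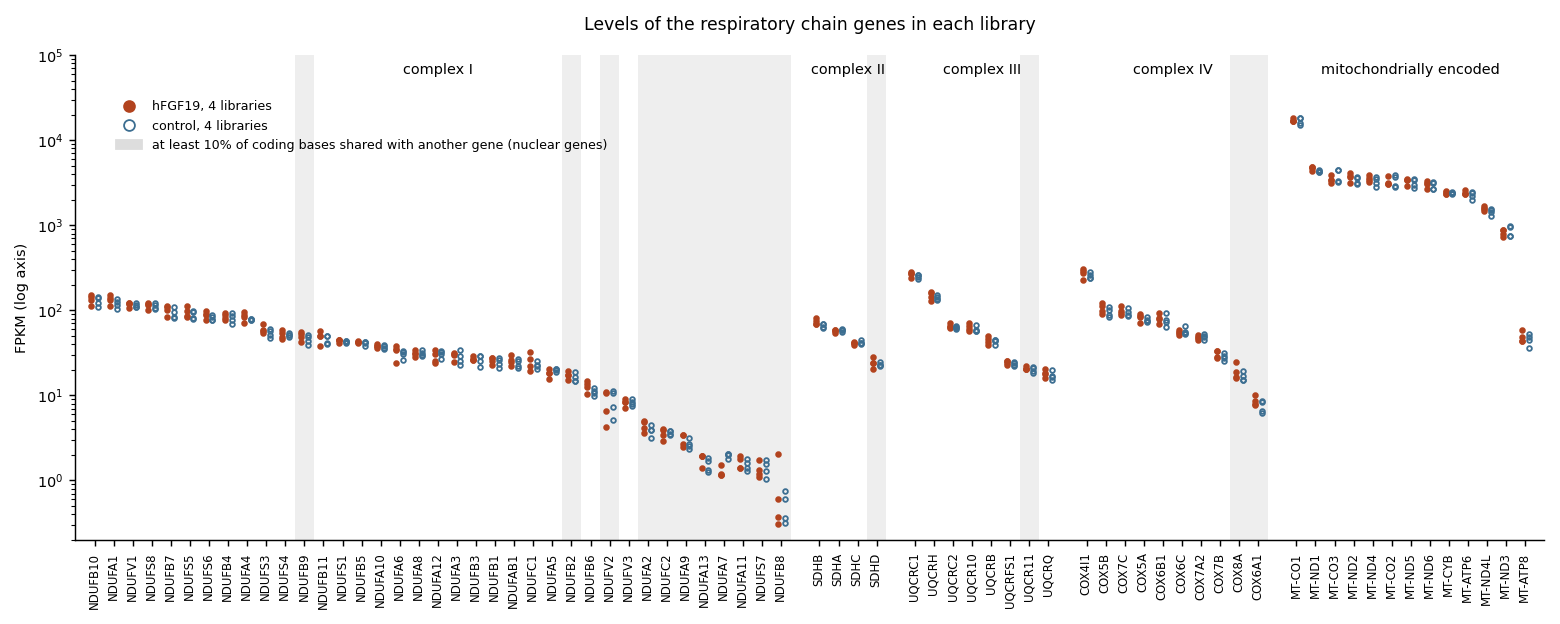
Levels of the respiratory chain genes (FPKM, log axis), ordered within each complex from high to low; filled points are the 4 hFGF19 libraries and open points the 4 control libraries. Grey bands mark nuclear genes with at least 10% of their coding bases shared with another gene, and the 9 lowest nuclear genes are all in such bands.

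The lowest nuclear members had a measured feature in common. In GENCODE 29, 15 of the 60 nuclear members shared at least 10% of their coding bases with exons of another gene, and 45 shared less. The median level was 4.11 FPKM among the 15 and 55.9 FPKM among the 45. Of the 11 nuclear members under 10 FPKM, 10 were among the 15, and the 9 lowest shared 17.03% to 85.2% of their coding bases. The exception was NDUFV3, a small accessory subunit gene, with 8.24 FPKM. NDUFB8, an accessory subunit gene on chromosome 10, shared 85.2% with AL133352.1. NDUFA7 on chromosome 19 shared 78.3% with AC010323.1, and NDUFV2, a core subunit gene on chromosome 18, shared 84.7% with AP005263.1. UQCR11 shared all of its coding bases (100%) with AC005943.1 and had 20.4 FPKM, so sharing did not always go with a level under 10 FPKM. How the counting treated reads over shared bases is not given, and its part in these low levels was not tested. The levels of these 15 genes are therefore uncertain.

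No respiratory chain gene was called in the comparison of hFGF19 with control libraries (limma, Benjamini-Hochberg adjusted p under 0.05 over all 14100 genes). Over all genes 0.106% were called. At an unadjusted p under 0.05, 2 of the 72 members passed, against 4.23% of all genes. A fit of the read numbers recovered from the FPKM values (limma-voom) also called 0 members, with 2 at an unadjusted p under 0.05, against 3.86% of all genes. Groups that did not overlap were seen for 1 member, against 3.12% of all genes. The log2 change was above 0 for 58 members and below 0 for 14, with a median of 0.08, while 43.7% of all genes tested were above 0, with a median of -0.01. In bulk libraries, less RNA per cell and fewer cells of a kind cannot be told apart. On the log2(FPKM + 1) scale the members' changes lay between -0.39 and 0.21, and the 95% intervals reached from -0.72 to 0.53 at the outermost. That scale shrinks changes of low genes, and the change of -0.39, that of NDUFA7, was -0.63 in the voom fit.

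**Figure D2:**
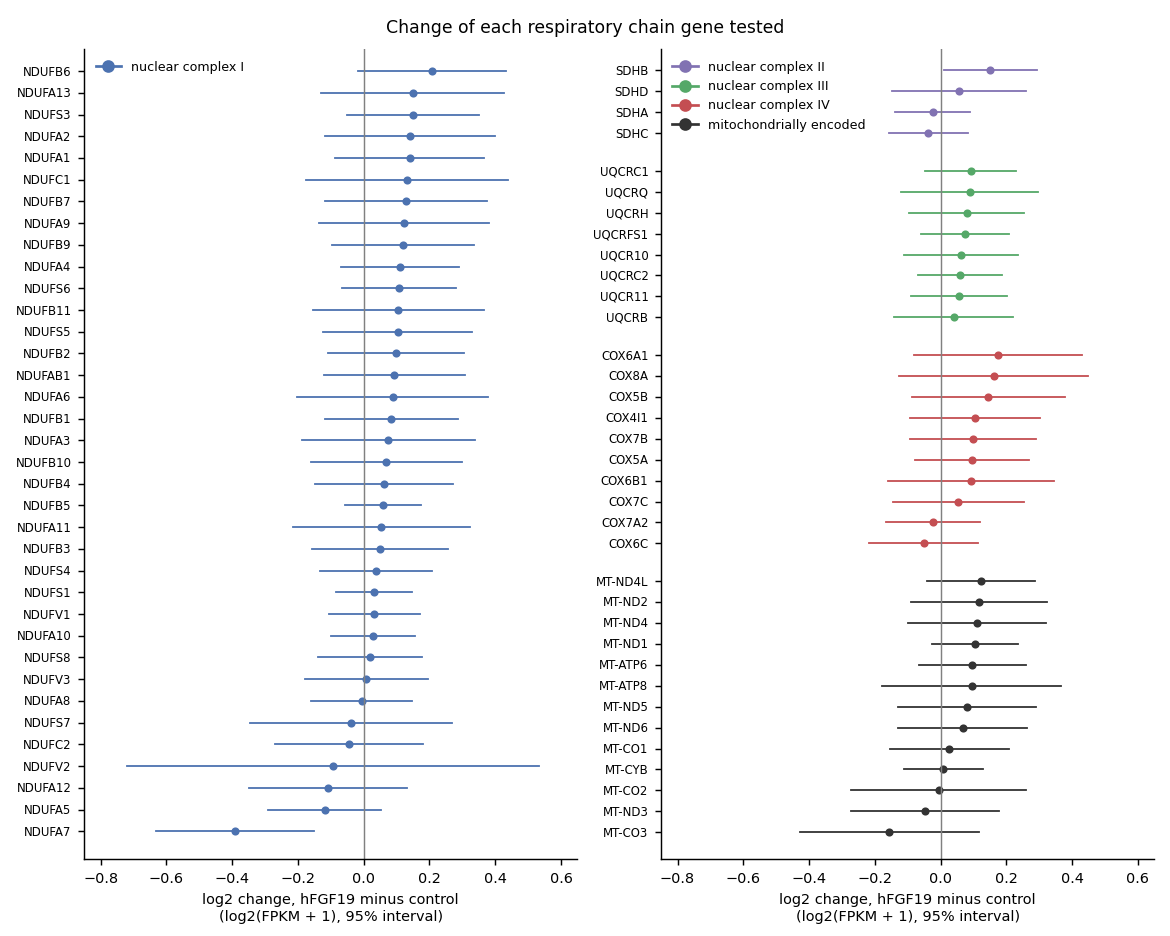
Log2 change, hFGF19 minus control, on the log2(FPKM + 1) scale, for the genes tested; points are estimates and lines 95% intervals. The intervals of NDUFA7 (below 0) and SDHB (above 0) leave out 0 before adjustment, and neither gene was called.

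Pairs are here the libraries of the same replicate number, and neither the labels nor the data establish that these belong together. With the replicate number as a block the fit called 0 members, and 10 had an unadjusted p under 0.05 (9 higher and 1 lower with hFGF19), against 6.88% of all genes. The smallest adjusted p among them was 0.543, for SDHB. In all 4 pairs, 15 members were higher in the hFGF19 library, against 6.66% of all genes. They were UQCRC1, SDHB, NDUFA1, COX7B, COX5B, NDUFB5, NDUFS6, NDUFB9, NDUFS5, COX8A, MT-ND6, MT-ND2, MT-ND1, MT-ATP6 and MT-ND4L. One member, NDUFA7, was lower in all 4 pairs, against 8.5% of all genes. These members share the same 8 libraries, so they are not independent of each other.

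In complex I, 30 of 37 nuclear members tested had a log2 change above 0 and the median was 0.07, or 0.02 without hFGF19 3 or without control 1. NDUFA7, an accessory subunit, had 1.17, 1.53, 1.154 and 1.20 FPKM in hFGF19 1 to 4, against 1.79, 1.97, 2.05 and 2.04 FPKM in control 1 to 4. Every hFGF19 library was below every control library, and this was the only member of the 72 with such a separation. These levels rest on 13, 14, 11 and 12 reads in hFGF19 1 to 4 and 17, 20, 20 and 22 reads in control 1 to 4. The log2 change was -0.39 ± 0.11 (SE), with an unadjusted p of 0.0045 and an adjusted p of 0.645 (limma). On the log2(FPKM + 1) scale the largest difference in the other direction was that of NDUFB6, another accessory subunit. In the voom fit that of NDUFA13 was larger (0.24 against 0.22). NDUFB6 had 12.5, 13.4, 14.8 and 10.5 FPKM in hFGF19 1 to 4, against 9.73, 12.1, 11.1 and 10.6 FPKM in control 1 to 4. Its groups overlapped, since hFGF19 4 lay below 3 of the control libraries, and its log2 change was 0.21 ± 0.10 (SE, adjusted p = 0.9998, limma).

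No core subunit gene of complex I, the subunits that hold the flavin and the iron-sulfur clusters among them, was called. NDUFS1, the subunit with the largest number of clusters, had 44.7, 40.8, 45.0 and 44.6 FPKM in hFGF19 1 to 4, against 43.6, 41.5, 43.5 and 42.5 FPKM in control 1 to 4. The 95% interval of its log2 change ran from -0.08 to 0.15. NDUFV1, which binds the flavin, had a log2 change of 0.03 ± 0.06 (SE), and NDUFS8 one of 0.02 ± 0.07. NDUFS3, a core subunit without a cluster, had 54.4, 56.9, 69.2 and 58.1 FPKM in hFGF19 1 to 4, against 47.2, 59.6, 56.8 and 51.3 FPKM in control 1 to 4. Its groups overlapped, and its log2 change was 0.15 ± 0.09 (SE), with an unadjusted p of 0.13, or 0.037 with the replicate block (adjusted p = 0.9998 and 0.70, limma). NDUFV2 was the most variable member tested, with 4.28, 11.02, 10.8 and 6.64 FPKM in hFGF19 1 to 4, against 7.31, 11.4, 10.5 and 5.20 FPKM in control 1 to 4. In both groups libraries 2 and 3 were above libraries 1 and 4. The log2 change of NDUFV2 was -0.09 with a 95% interval from -0.72 to 0.53, and changes within that interval were not detectable at this spread. NDUFS7, which carries the last iron-sulfur cluster before ubiquinone, averaged 1.33 ± 0.28 FPKM in hFGF19 libraries and 1.40 ± 0.30 FPKM in control libraries (SD, n = 4 each).

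Among further members fixed by name, NDUFAB1, the mitochondrial acyl carrier protein, averaged 25.6 ± 3.1 FPKM in hFGF19 libraries and 23.9 ± 2.6 FPKM in control libraries (SD, n = 4 each). NDUFA4, whose protein is now placed in complex IV in spite of its name, averaged 84.7 ± 10.4 FPKM in hFGF19 libraries and 78.0 ± 2.0 FPKM in control libraries. NDUFB8 was the member not tested, with 0.306, 0.371, 2.05 and 0.598 FPKM in hFGF19 1 to 4, against 0.358, 0.756, 0.611 and 0.316 FPKM in control 1 to 4. Its highest library, hFGF19 3, held 23 reads and every other library at most 9.

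In complex II, SDHB had 69.6, 75.2, 80.2 and 69.8 FPKM in hFGF19 1 to 4, against 62.2, 69.2, 69.8 and 63.8 FPKM in control 1 to 4. Among the controls only control 3 reached into the hFGF19 range, just above hFGF19 1 and hFGF19 4. The log2 change of SDHB was 0.15 ± 0.06 (SE), with an unadjusted p of 0.039 and an adjusted p of 0.9998 (limma). Among its partner subunits, SDHD also had a higher mean with hFGF19, with a log2 change of 0.06 ± 0.09 (SE). SDHA and SDHC had lower means, with log2 changes of -0.02 ± 0.05 and -0.04 ± 0.05 (SE). SDHA averaged 57.2 ± 2.3 FPKM in hFGF19 libraries and 58.2 ± 1.9 FPKM in control libraries, SDHC 40.7 ± 1.2 and 41.9 ± 2.1 FPKM, and SDHD 24.1 ± 3.4 and 23.0 ± 1.3 FPKM (SD, n = 4 each). Whether SDHB differed from its partners in its change was not tested. The median log2 change of the 4 genes was 0.02, and it was -0.01 without hFGF19 3.

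In complex III, all 8 members had a log2 change above 0, between 0.04 (UQCRB) and 0.09 (UQCRC1), with a median of 0.07. UQCRC1 averaged 267 ± 18 FPKM in hFGF19 libraries and 250.2 ± 12.8 FPKM in control libraries, with a log2 change of 0.09 ± 0.06 (SE, adjusted p = 0.9998, limma). UQCRFS1, the Rieske iron-sulfur protein, averaged 24.4 ± 1.2 FPKM in hFGF19 libraries and 23.1 ± 1.2 FPKM in control libraries (SD, n = 4 each). UQCRC2, the other core protein, averaged 65.6 ± 4.2 and 62.9 ± 2.2 FPKM in hFGF19 and control libraries. UQCRQ, the lowest of the complex, averaged 18.2 ± 1.9 and 17.1 ± 2.0 FPKM in hFGF19 and control libraries. For 6 of the 8 genes hFGF19 3 was the highest library. Without that library the median log2 change of complex III was 0.03.

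In complex IV, 8 of 10 members had a log2 change above 0 and the median was 0.10, or 0.04 without hFGF19 3. COX5B, a zinc-binding subunit, had 90.6, 111, 121 and 98.5 FPKM in hFGF19 1 to 4, against 82.6, 108, 101.3 and 88.9 FPKM in control 1 to 4. The hFGF19 library was the higher one in each of the 4 pairs, and the groups overlapped because libraries 2 and 3 of both groups were above libraries 1 and 4. COX6A1, the lowest of the complex, averaged 8.56 ± 1.07 FPKM in hFGF19 libraries and 7.49 ± 1.22 FPKM in control libraries (SD, n = 4 each), a log2 change of 0.18 ± 0.12 (SE). COX4I1 had a log2 change of 0.10 ± 0.09 (SE) and COX5A one of 0.10 ± 0.08. COX6C was the member with the smallest p among those lower, with a log2 change of -0.05 ± 0.08 (SE). All 10 had an adjusted p of 0.9998 (limma).

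The spread between libraries of 1 group was larger than the difference between the groups for the nuclear members as a whole. Their summed share of all FPKM was 0.446%, 0.515%, 0.549% and 0.489% in hFGF19 1 to 4, against 0.446%, 0.517%, 0.495% and 0.454% in control 1 to 4. The means were 0.4998% ± 0.043 in hFGF19 libraries and 0.478% ± 0.033 in control libraries (SD, n = 4 each). Within each group libraries 2 and 3 had the higher shares, and the share was higher in the hFGF19 library in 2 of 4 pairs. Library hFGF19 3 was the highest of the 8 for 38 of the 60 nuclear members, and the lowest library was control 1 for 21 and hFGF19 1 for 17. Without hFGF19 3 the median log2 change of the nuclear members was 0.02 in place of 0.08, and without control 1 it was 0.05. It was 0.13 without hFGF19 1 and 0.12 without control 2. All 4 are shifts of more than 1.5 times.

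**Figure D3:**
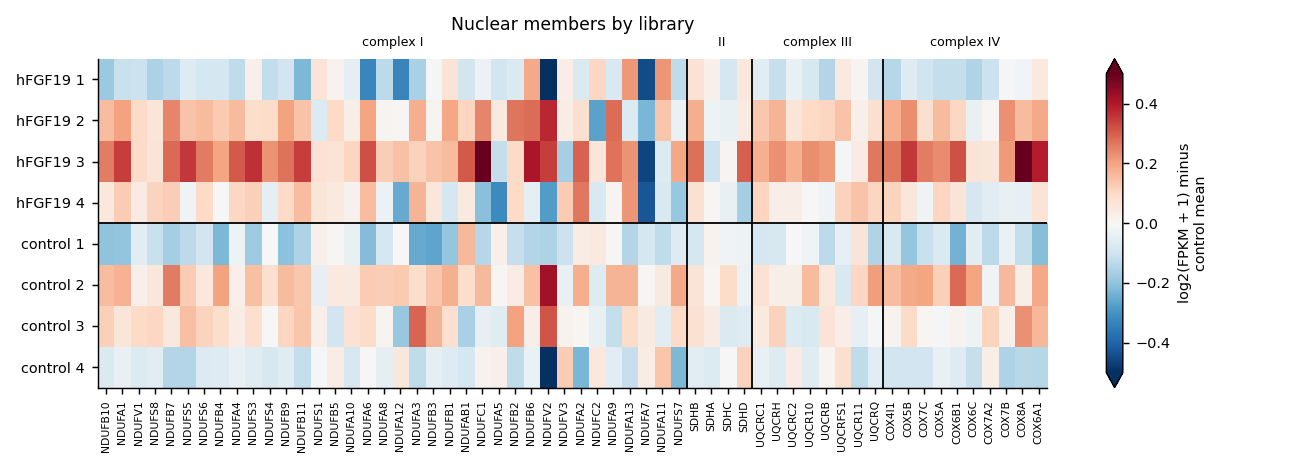
Deviation of nuclear genes tested from their own means over the 4 control libraries (log2(FPKM + 1); red above, blue below), with the 4 hFGF19 libraries in the upper rows and the 4 control libraries in the lower rows. The row of hFGF19 3 is mostly red and those of hFGF19 1, control 1 and control 4 mostly blue.

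Other short genes also differed between libraries of a group. The median length of the 73 members, as implied by their FPKM steps, was 754 bases, against 1485 bases for all genes tested. All other genes under 800 bases together held 7.97%, 9.05%, 9.32% and 8.56% of FPKM in hFGF19 1 to 4, against 7.91%, 8.90%, 8.66% and 8.03% in control 1 to 4. Genes of the cytosolic ribosome held 6.84%, 8.16%, 8.59% and 7.57% in hFGF19 1 to 4, against 6.80%, 8.02%, 7.64% and 7.12% in control 1 to 4. In both sums hFGF19 3 was the highest library, and in both groups libraries 2 and 3 were above libraries 1 and 4, as for the nuclear members. The lowest library was control 1 in both sums and hFGF19 1, by a small margin, for the nuclear members. The other genes under 800 bases averaged 8.728% in hFGF19 libraries and 8.375% in control libraries, and were higher with hFGF19 in 4 of 4 pairs. The cytosolic ribosome averaged 7.79% and 7.394%, also higher in 4 of 4 pairs. All other genes of 2000 bases or more averaged 18.01% and 18.47%, and were higher with hFGF19 in 0 of 4 pairs. The part of gene length in the members' differences was not tested.

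The sum of the mitochondrially encoded genes, to which MT-CO1 adds most, did not have the library pattern of the nuclear sum, although some of the 13 genes did. Their summed share of FPKM was 7.67%, 7.37%, 7.44% and 7.39% in hFGF19 1 to 4, against 7.72%, 6.88%, 7.14% and 7.63% in control 1 to 4, with means of 7.47% ± 0.14 in hFGF19 libraries and 7.34% ± 0.40 in control libraries (SD, n = 4 each). The difference of the means was 0.12 percentage points. It was -0.03 without control 2, 0.05 without hFGF19 1, 0.06 without control 3, 0.22 without control 4 and 0.25 without control 1. The summed mitochondrial FPKM was 17.2, 14.3, 13.6 and 15.1 times the summed nuclear FPKM in hFGF19 1 to 4, against 17.3, 13.3, 14.4 and 16.8 times in control 1 to 4. This ratio averaged 15.04 ± 1.6 in hFGF19 libraries and 15.5 ± 1.9 in control libraries. It was highest in hFGF19 1, control 1 and control 4, the libraries with the lowest nuclear shares.

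**Figure D4:**
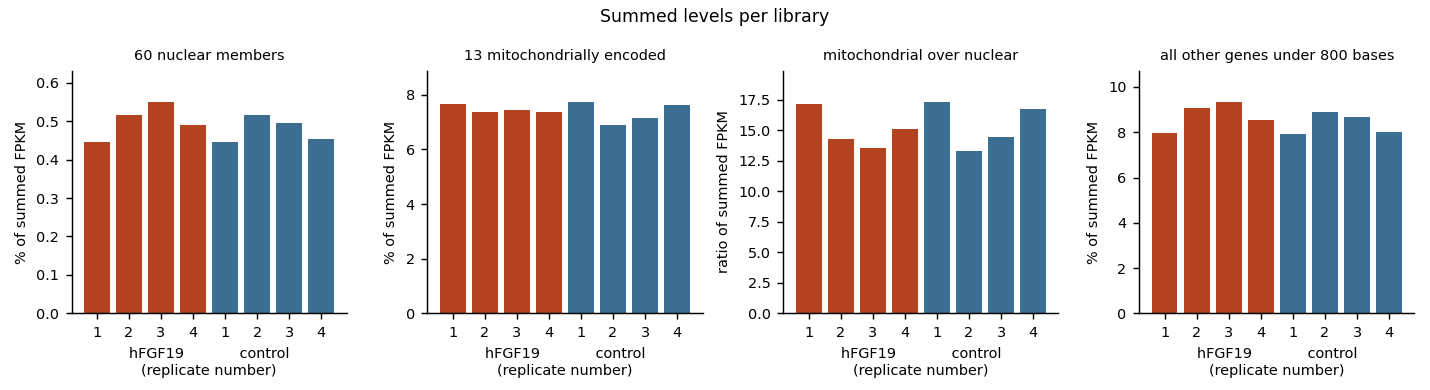
Summed FPKM per library of the nuclear members, of the mitochondrially encoded members, the ratio of the mitochondrial to the nuclear sum, and the sum of all other genes under 800 bases; each bar is 1 library, hFGF19 1 to 4 and then control 1 to 4. The nuclear members and the other short genes have their highest bar in hFGF19 3, and the ratio is highest in control 1 (17.3) and hFGF19 1 (17.2).

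Among the 13 mitochondrially encoded genes 10 had a log2 change above 0, with a median of 0.08, or 0.04 without hFGF19 3 or without control 2, and 0.02 after quantile normalization. The changes lay between -0.16 (MT-CO3) and 0.12 (MT-ND4L), and none was called. MT-ND1, a membrane subunit of complex I and the gene with the smallest p, had 4325, 4786, 4713 and 4811 FPKM in hFGF19 1 to 4, against 4274, 4334, 4488 and 4221 FPKM in control 1 to 4. Only hFGF19 1 lay within the range of the controls. The log2 change of MT-ND1 was 0.10 ± 0.06 (SE, adjusted p = 0.9998, limma). MT-CO3, a complex IV subunit, had 3946, 3376, 3408 and 3138 FPKM in hFGF19 1 to 4, against 4495, 3334, 3242 and 4516 FPKM in control 1 to 4. The controls lay in a high and a low pair with a gap wider than the whole hFGF19 range, and the log2 change was -0.16 ± 0.12 (SE, adjusted p = 0.9998, limma). MT-CYB, the only complex III subunit of this genome, averaged 2428 ± 107 FPKM in hFGF19 libraries and 2412 ± 51 FPKM in control libraries (SD, n = 4 each).

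Libraries differed in which stretch of the mitochondrial genome was high. In genome order, MT-CO1, MT-CO2, MT-ATP6, MT-CO3, MT-ND3, MT-ND4L and MT-ND4 follow one another, with only MT-ATP8 between them, and each was higher in controls 1 and 4 than in controls 2 and 3. MT-ND1 and MT-ND2, which lie before this stretch, and MT-ND5 and MT-ND6, which lie after it, were lower in controls 1 and 4 than in controls 2 and 3. MT-CO2 had 3822, 3060, 3180 and 3075 FPKM in hFGF19 1 to 4, against 3736, 2802, 2864 and 3881 FPKM in control 1 to 4. MT-ND2 had 3135, 3781, 4073 and 3719 FPKM in hFGF19 1 to 4, against 3133, 3696, 3625 and 3091 FPKM in control 1 to 4. MT-CYB, the last gene in this order, varied least, with a coefficient of variation of 3.22% over the 8 libraries. Although it lies beyond MT-ND6, it was also higher in controls 1 and 4 than in controls 2 and 3. Control 4 (2402.6 FPKM) and control 2 (2402.1 FPKM) were almost equal. The library hFGF19 1 was like controls 1 and 4 in MT-CO2 and MT-ND2, and hFGF19 2, 3 and 4 were like controls 2 and 3.

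The same order of libraries was seen in ratios within the mitochondrial genome, which do not depend on the scaling between libraries. The ratios were chosen after the values were seen and are given with no test. MT-CO3 over MT-ND2 was 1.26, 0.893, 0.837 and 0.844 in hFGF19 1 to 4, against 1.44, 0.902, 0.894 and 1.46 in control 1 to 4. MT-CO2 over MT-ND5 was 1.31, 0.888, 0.898 and 0.894 in hFGF19 1 to 4, against 1.27, 0.812, 0.818 and 1.41 in control 1 to 4. MT-CO1 over MT-ND1 was 4.24, 3.52, 3.57 and 3.53 in hFGF19 1 to 4, against 4.28, 3.51, 3.59 and 4.34 in control 1 to 4. For all 3 ratios hFGF19 1, control 1 and control 4 were high and the other 5 libraries low. These were also the 3 libraries with the lowest nuclear shares. MT-ND6 is the only member read from the opposite strand, and it followed MT-ND5, its neighbour on the other strand, with 2667, 3123, 3327 and 3068 FPKM in hFGF19 1 to 4, against 2656, 3112, 3209 and 2665 FPKM in control 1 to 4. The strand setting of the counting is not given, so reads from the 2 strands cannot be told apart at MT-ND6.

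**Figure D5:**
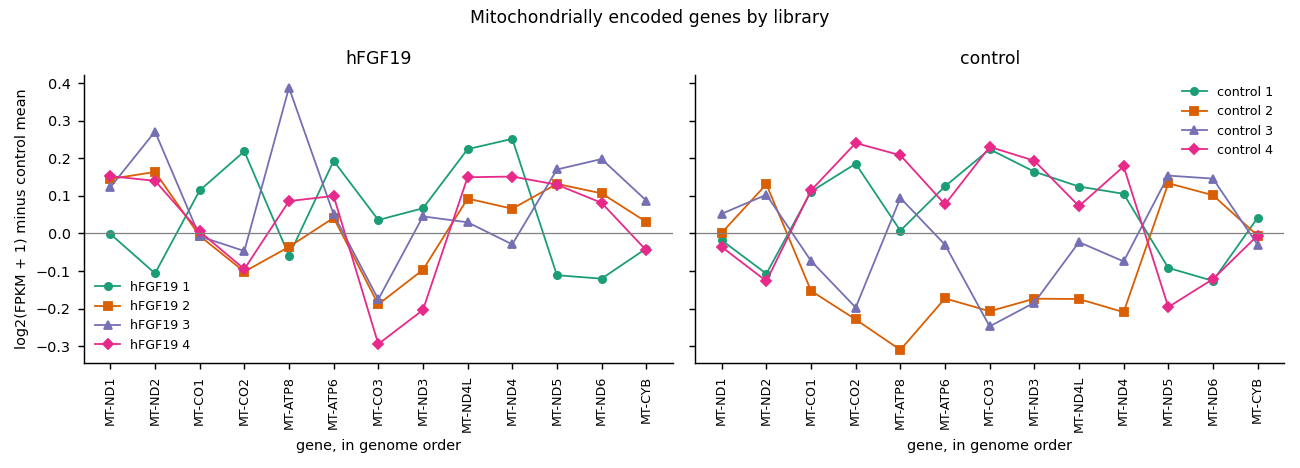
Deviation of the 13 mitochondrially encoded genes from their own mean over the 4 control libraries (log2(FPKM + 1)), in genome order, for hFGF19 libraries on the left and control libraries on the right; each line is 1 library. Control 1 and control 4 are above 0 from MT-CO1 to MT-ND4 and below 0 at MT-ND1, MT-ND2, MT-ND5 and MT-ND6, and hFGF19 1 has most of the same shape.

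The other genes of oxidative phosphorylation and its supply were described by lists, and no gene of any list was called (limma, all genes tested). Of 17 nuclear ATP synthase genes tested, 11 had a log2 change above 0, with a median of 0.04 and none at an unadjusted p under 0.05. ATP5F1B, the catalytic beta subunit, averaged 626 ± 7 FPKM in hFGF19 libraries and 612 ± 18 FPKM in control libraries (SD, n = 4 each). ATP5F1A, the alpha subunit, averaged 200.3 ± 1.8 and 199.5 ± 6.0 FPKM in hFGF19 and control libraries. ATP5MC1, a gene of the c subunit and the one of smallest p, averaged 35.9 ± 4.1 FPKM in hFGF19 libraries and 32.6 ± 2.8 FPKM in control libraries. Of 15 electron carrier genes 8 were above 0, with a median of 0.00. CYCS, which encodes cytochrome c, had a log2 change of 0.06 ± 0.05 (SE). Of 16 citrate cycle genes 9 were above 0, with a median of 0.01. SUCLA2, of succinyl-CoA ligase, had the smallest p there, with a log2 change of -0.08 ± 0.08 (SE).

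Of 16 complex I assembly factor genes 10 were above 0, with a median of 0.02. NDUFAF5 had the smallest p among them, with a log2 change of 0.20 ± 0.11 (SE). Of 27 assembly factor genes of the other complexes 13 were above 0 and 2 had an unadjusted p under 0.05. One was COX16, a complex IV assembly factor, with 3.03, 2.87, 2.55 and 2.84 FPKM in hFGF19 1 to 4, against 1.63, 2.46, 1.38 and 1.75 FPKM in control 1 to 4. All hFGF19 libraries were above all control libraries for COX16, and its adjusted p was 0.645 (limma, log2 change 0.46 ± 0.13, SE). The other, COA5, named after its values were seen, was lower, with a log2 change of -0.17 ± 0.07 (SE, unadjusted p = 0.027, limma). Of 75 mitochondrial ribosomal protein genes 53 were above 0, with a median of 0.05 and 4 at an unadjusted p under 0.05. MRPS24, of the small mitochondrial ribosomal subunit, had 7.62, 6.72, 7.38 and 7.80 FPKM in hFGF19 1 to 4, against 3.86, 5.96, 5.17 and 5.31 FPKM in control 1 to 4. Its groups did not overlap either, with a log2 change of 0.47 ± 0.11 (SE) and an adjusted p of 0.423 (limma). Groups without overlap, in either direction, were seen for 3.12% of all genes tested.

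Regulators of mitochondrial biogenesis had 3 of 11 genes above 0, with a median of -0.03. PPARGC1A, the coactivator PGC-1alpha, averaged 1.77 ± 0.45 FPKM in hFGF19 libraries and 1.88 ± 0.47 FPKM in control libraries (SD, n = 4 each). NRF1 averaged 9.06 ± 0.60 and 8.88 ± 0.45 FPKM, GABPA 18.4 ± 1.7 and 19.8 ± 1.5 FPKM, and ESRRA 35.5 ± 2.7 and 36.2 ± 0.7 FPKM in hFGF19 and control libraries. GABPB1 had the smallest p of the list, with a log2 change of -0.13 ± 0.08 (SE). Of 24 genes of mitochondrial gene expression 10 were above 0, with a median of -0.02. GFM1, a mitochondrial elongation factor gene, had the smallest p there and a log2 change of -0.10 ± 0.06 (SE). All its hFGF19 libraries (at most 21.78 FPKM) were below all its control libraries (at least 22.12 FPKM). TFAM, which packages mitochondrial DNA and starts its transcription, had a log2 change of -0.02 ± 0.07 (SE), and POLRMT, the mitochondrial RNA polymerase, one of -0.03 ± 0.06. LRPPRC, which stabilises mitochondrial mRNAs, had one of -0.02 ± 0.07. The mitochondrial rRNA genes MT-RNR1 and MT-RNR2 averaged 510 ± 51 and 1704 ± 286 FPKM in hFGF19 libraries and 541 ± 27 and 1679 ± 113 FPKM in control libraries. The libraries were poly(A)-selected, so these values are not the abundance of the rRNA.

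Of 10 tissue isoforms and relatives of the subunits 5 were tested, and 2 of those had a log2 change above 0. This list also holds CYCS, given above with the electron carriers, and the 2 genes above 0 were CYCS and COX7A2L. Their levels ran from near 0 upward, and COX7A2L and COX6B2, named after their values were seen, were among the higher ones. COX7A2L averaged 59.95 ± 3.6 FPKM in hFGF19 libraries and 58.2 ± 2.6 FPKM in control libraries and COX6B2 averaged 11.6 ± 1.0 FPKM in hFGF19 libraries and 12.2 ± 0.79 FPKM in control libraries (SD, n = 4 each). COX4I2, the isoform of COX4I1 known from lung, was at 0.0934, 0.113, 0 and 0.208 FPKM in hFGF19 1 to 4, against 0, 0.716, 0 and 0 FPKM in control 1 to 4. NDUFA4L2, a hypoxia-responsive relative of NDUFA4, averaged 0.992 ± 0.297 FPKM in hFGF19 libraries and 1.45 ± 0.30 FPKM in control libraries (SD, n = 4 each), with a log2 change of -0.30 ± 0.15 (SE, adjusted p = 0.9998, limma). Of 394 nuclear copies of mitochondrial genes in the table, 12 were tested and 9 of those were above 0. Their summed level was 725 to 940 FPKM in hFGF19 libraries and 700.1 to 758 FPKM in control libraries. MTND4P12, the copy of smallest p, averaged 6.70 ± 1.3 FPKM in hFGF19 libraries and 5.38 ± 0.70 FPKM in control libraries. Reads of these copies and of the mitochondrial genes can be near-identical, and how they were divided is not given. Of 119 pseudogenes of nuclear members 5 were tested, and SDHAP3, a pseudogene of SDHA, had 3.03, 3.43, 2.84 and 3.08 FPKM in hFGF19 1 to 4, against 4.76, 5.05, 4.58 and 3.33 FPKM in control 1 to 4. The groups overlapped at control 4, and the adjusted p was 0.744 (limma, log2 change -0.40 ± 0.12, SE).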

How the data were processed

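The values were FPKM per gene and library, as the authors deposited them. The submitters' processing notes list HISAT2 2.0, StringTie 1.3.0 and hg19 with no role for any of them. The gene lengths implied by the FPKM steps equalled the mean transcript length in GENCODE 29 (GRCh38) within 0.5 bases for 13905 of 13932 genes, so the annotation used may not be that of hg19, and positions and overlaps given here are those of GRCh38. Whole reads were recovered for 99.993% of the values above 0, within 0.02 reads. PCR copies are included, so counting precision is not that of molecules.

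Genes averaging 1 FPKM or more were fitted with limma 3.58.1 in R 4.3.3 on log2(FPKM + 1), with a variance trend, all 8 libraries, a two-sided moderated test and Benjamini-Hochberg adjustment, called at an adjusted p under 0.05. The pseudocount of 1 understates changes of low genes. Tables were made with pandas 2.3.3 in Python 3.11.15. The fit was tested on simulated data with errors drawn independently for each gene and library. Real libraries share patterns across genes, so that test does not cover their spread. Limma-voom on the recovered reads, chosen after seeing the data, called 14 genes in all, against 15.

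The labels give both groups replicate numbers 1 to 4. Deviations from the group means correlated across genes between libraries of the same number at 0.30, 0.17, 0.17 and 0.11. The replicate block and the pairs use these numbers, but neither the labels nor these correlations establish that they pair the libraries. Some libraries of different number correlated more (hFGF19 3 with control 2, 0.44, hFGF19 1 with control 4, 0.41, and hFGF19 4 with control 1, 0.19). The correlation of hFGF19 2 was 0.17 with control 2 and with control 3 alike.

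The members and the lists were chosen with earlier results of these data known, and no test was made over a list. Genes named were the members highest, lowest and of smallest p in each complex, those whose groups did not overlap, the gene of smallest p in each further list, and genes fixed by name. NDUFA1, NDUFA13, NDUFB5, NDUFB9, NDUFS3, NDUFS5, NDUFS6, NDUFV3, UQCR11, UQCRB, COX7B and COX8A were named after their values were seen. One member is counted but not reported by name here, and the plots by gene leave it out. Alternatives were other pseudocounts, filters, scalings, no variance trend, the replicate block and leaving out each library.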

Additional observations from a re-analysis of the deposited data

Results flagged for a closer look

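In 148 groups of 4 libraries (74 quantities, both groups), 6 had a library that stood far from the other 3 by the gap between it and the nearest. Chance flags about 1 in 20 such groups, or 7.4 here. All 6 were hFGF19 groups, with 3 from hFGF19 1 and 3 from hFGF19 2. The rule finds 1 library apart from 3. It could not flag MT-CO1, MT-CO2 or MT-ND5 among the controls, where controls 1 and 4 stood apart from controls 2 and 3. In hFGF19 1, MT-CO1 was high at 18331 FPKM (the other 3 libraries had 16842 to 16995 FPKM), MT-CO2 was high at 3822 FPKM (3060 to 3180 FPKM) and MT-ND5 was low at 2912 FPKM (3442 to 3540 FPKM). In hFGF19 2, NDUFA13, an accessory subunit gene of complex I, was low at 1.39 FPKM (1.91 to 1.93 FPKM), NDUFA7 was high at 1.53 FPKM (1.154 to 1.20 FPKM) and NDUFS1 was low at 40.8 FPKM (44.6 to 45.0 FPKM).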

How the results depend on the processing

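The number of respiratory chain genes called was 0 under every alternative run, among them the replicate block. The smallest adjusted p of any member was 0.186 (NDUFA7, limma without the variance trend), and its adjusted p in the other fits was higher. The count of calls over all genes was 15, 21 with the replicate block and 7 to 13 when 1 library was left out (9 without hFGF19 1, 8 without control 3, and 7 without hFGF19 2, hFGF19 4 or control 1). The median log2 changes and the summed shares moved by less than 1 SD between libraries in every alternative. This says little. For the medians the SD was larger than each median itself (0.12 against 0.08 for the nuclear members). A median that fell to 0 would also have stayed within it. For the nuclear share the SDs were 0.043 (hFGF19) and 0.033 (control), against a difference of 0.022 percentage points. The difference in the mitochondrial share went from 0.12 to -0.03 without control 2 and still counted as within 1 SD. Leaving out 1 library gave 0.02 to 0.13 for the nuclear median, 0.04 to 0.09 for the mitochondrial median, and 0.02 to 0.13, -0.01 to 0.05, 0.03 to 0.11 and 0.04 to 0.16 for nuclear complexes I, II, III and IV. Quantile normalization lowered the mitochondrial median to 0.02. The sign of the log2 change differed from that reported for 23 of 72 members when 1 library was left out and for 4 in the other alternatives. The nuclear median was 0.08 also without the members that share at least 10% of their coding bases. Depth limits the lowest members, with 11 to 22 reads per library behind NDUFA7.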
